A study of Homo sapiens with 9 samples.

Results

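Nonmuscle myosin II, filamin A, vinculin and the nonmuscle actinins form the contractile and anchoring machinery of the megakaryocyte cortex. The genes followed here are MYH9 and MYH10 (myosin heavy chains), MYL6, MYL9, MYL12A and MYL12B (myosin light chains), VCL, FLNA, ACTN1 and ACTN4. They were chosen by symbol, with earlier results of these data known, and all 10 were found among the 63241 genes of the deposited tables. The libraries came from MEG-01, an established human megakaryoblastic leukaemia line, in 3 groups of 3: cells given As2S2 (arsenic disulfide), cells given PMA (a phorbol ester that activates protein kinase C and is used to push this line towards megakaryocytes), and untreated controls. Poly(A)-selected RNA was sequenced to ask what As2S2 does to megakaryocyte differentiation, with PMA beside it. The labels give neither a dose nor a treatment time, so As2S2 and PMA are compared as given and not at matched exposure. They also do not say whether replicates were separate cultures. The p-values therefore set group differences against a spread between these libraries that may be technical.

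A nonmuscle myosin II molecule holds a pair of heavy chains, each with an essential light chain (MYL6) and a regulatory light chain (MYL9, MYL12A or MYL12B) whose phosphorylation switches the motor on. In megakaryocytes MYH9 is the main heavy chain of maturing cells and is mutated in MYH9-related disease with large platelets, while MYH10 is known to be silenced as the cells become polyploid, with RUNX1 named as its repressor. FLNA ties actin to the glycoprotein Ib receptor and to integrins, VCL ties talin to actin at adhesions, and the actinins crosslink filaments. Variants of FLNA and of ACTN1 also cause inherited low platelet counts.

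The start-site sequences of MYH10, MYH9 and FLNA are shown because MYH9 and MYH10 are the heavy chains whose levels went opposite ways with PMA, and because FLNA holds a CArG box, the site class of the actin-regulated factor SRF. They are RefSeq sequences of GRCh38.p14, each 250 bases before and 50 after the annotated start, written 5′ to 3′ along the gene. All lie on the minus strand: MYH10 at chr17:8630676-8630975, MYH9 at chr22:36387918-36388217 and FLNA at chrX:154374585-154374884. Capitals mark a RUNX core (TGTGGT) in MYH10 and a CArG box in FLNA.
MYH10: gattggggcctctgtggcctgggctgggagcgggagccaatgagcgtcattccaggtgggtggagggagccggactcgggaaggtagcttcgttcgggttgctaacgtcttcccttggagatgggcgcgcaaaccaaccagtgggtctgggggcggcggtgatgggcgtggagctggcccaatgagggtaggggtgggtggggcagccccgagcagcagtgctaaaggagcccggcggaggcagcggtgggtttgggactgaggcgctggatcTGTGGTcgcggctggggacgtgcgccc
MYH9: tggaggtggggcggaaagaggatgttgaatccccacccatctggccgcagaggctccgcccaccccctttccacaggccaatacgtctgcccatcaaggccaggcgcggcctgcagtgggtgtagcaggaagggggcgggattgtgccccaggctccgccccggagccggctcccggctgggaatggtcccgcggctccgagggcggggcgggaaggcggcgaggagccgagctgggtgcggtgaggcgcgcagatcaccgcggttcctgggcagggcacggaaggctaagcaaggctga
FLNA: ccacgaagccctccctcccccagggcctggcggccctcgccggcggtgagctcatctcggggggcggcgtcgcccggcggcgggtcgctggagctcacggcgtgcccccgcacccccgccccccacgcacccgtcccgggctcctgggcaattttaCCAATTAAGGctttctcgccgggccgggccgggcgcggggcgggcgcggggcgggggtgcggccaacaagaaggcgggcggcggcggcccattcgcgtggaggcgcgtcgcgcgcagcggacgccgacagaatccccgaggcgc

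Both strands were searched for the RUNX core and for the CArG box, a palindromic class, in the promoters of all members but MYL9. The MYH10 match runs from 24 to 29 bases after the start, on the strand of the gene. The FLNA match runs from 94 to 85 bases before the start. Of the 4 promoters listed for ACTN1, 1 also holds a CArG box, and an alternative promoter of MYL12A and an alternative promoter of ACTN4 hold the RUNX core. The MYH9, VCL, MYL6 and MYL12B windows hold neither pattern, and no form of the RUNX core other than TGTGGT was searched. Of 35116 promoters of this length, 13.1% hold the RUNX core and 1.29% a CArG box. A match describes letters and not a bound site.

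Total counts per library ran from 18200501 to 20366870, and 14592 genes passed the filter on low counts. As2S2 replicate 1 and control replicate 2 stood apart from the rest of their groups on the third principal component (4.61% of the variance, after 62.9% and 18.8%), where As2S2 replicates lay at 19.68, -7.80 and -10.76, PMA replicates at 3.42, -0.59 and -1.18, and control replicates at 17.01, -29.82 and 10.05. Leaving both out therefore sets all remaining As2S2 libraries on the other side of this component from the controls, and results are given without them where that changed a call. The megakaryocyte markers ITGA2B (mean 138 TPM with As2S2, 68.3 with PMA, 189.7 in control) and ITGB3 (19.4, 51.5 and 11.7 TPM in the same order) were present. The platelet chemokine PF4 held 0, 1.6 and 1.0 counts summed over the libraries of a group, in that order. The 10 megakaryocyte markers summed to 148.0 to 175.2 TPM with As2S2, 131.8 to 148.7 with PMA and 201.3 to 212.9 in control.

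The tables listed markers of other cell types as well, and their part in the results below was not tested. All 8 erythroid markers had counts, and their summed level ran from 10220 to 11050 TPM with As2S2, from 34980 to 35890 with PMA and from 8014 to 8461 in control, most of it HBG2. All 6 monocyte markers had counts, with sums of 180.9 to 200.5, 303.2 to 327.0 and 180.6 to 191.5 TPM. Most of this was CD68, with means of 163.1, 275.6 and 147.3 TPM. FCGR1A, ITGAM and CD14 had lower mean TPM with PMA than in control, and LYZ and CSF1R had higher means. The 8 smooth muscle and fibroblast markers, whose cells are rich in several of the genes followed here, summed to 3.3 to 3.74, 6.11 to 6.94 and 4.75 to 4.97 TPM. Among 4 lymphoid markers MS4A1 was at 0 in every library, and the sums stayed at or under 0.85 TPM. In bulk RNA, fewer cells of a type and less RNA per cell cannot be told apart.

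Levels between genes were compared per transcript length, in TPM (transcript abundance scaled to a fixed total in each library). MYL6 was the most abundant member in every group, at 2301 ± 84.1 TPM with As2S2, 2494 ± 63.4 with PMA and 975.1 ± 20 in control (mean ± SD, n = 3 libraries each). The regulatory light chains followed. MYL12B stood at 262 ± 30.6 TPM with As2S2, 464 ± 13.2 with PMA and 281 ± 15.9 in control. MYL12A stood at 242 ± 33.7, 392.1 ± 6.14 and 296 ± 14.2 TPM in the same groups. Within each library MYL12B exceeded MYL12A in all 3 libraries with As2S2 and all 3 with PMA, and MYL12A exceeded MYL12B in all 3 controls, although the ranges of the pair overlapped with As2S2 and in control.

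ACTN4 came next in every group, at 192 ± 15.1 TPM with As2S2, 99.99 ± 10.9 with PMA and 179.6 ± 0.457 in control. FLNA followed at 108 ± 12.3, 71.5 ± 1.90 and 83.6 ± 5.31 TPM. ACTN1 stood at 75.6 ± 3.08, 53.9 ± 0.891 and 54.2 ± 1.58 TPM, and MYH9 at 68.0 ± 3.02, 53.0 ± 2.01 and 48.5 ± 2.99. The last pair kept ACTN1 above MYH9 in every library with As2S2 and in control, and overlapped with PMA. VCL, at 7.52 ± 0.104, 9.98 ± 0.0557 and 5.11 ± 0.601 TPM, and MYH10, at 1.84 ± 0.334, 0.923 ± 0.382 and 2.32 ± 0.656 TPM, were the least abundant of the detected members.

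The regulatory light chain MYL9 was not detectable at this depth. It had 0 counts with As2S2, 1 with PMA and 1 in control, each summed over 3 libraries. A total of 3 counts over a group, the floor used here, equals 0.0527, 0.052 and 0.0512 CPM (counts scaled to a fixed library total). It did not pass the filter on low counts, and no fold is given. The other 9 members passed, each with counts in all 9 libraries, so none was kept by a single group.

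Between groups, levels were compared as CPM scaled by TMM, an edgeR factor that sets the bulk of genes equal. With As2S2, 6 of the 9 tested members rose, 0 fell and 3 did not pass the test (edgeR, adjusted p under 0.05). Over all 14592 genes, 39.9% were called with As2S2, 20.3% higher and 19.6% lower. The median log2 fold change of the 9 members was 0.50, against -0.0001 for all genes tested. With PMA, 6 rose, 2 fell and 1 did not pass, while 61.9% of all genes were called, 30.8% higher and 31.1% lower, and the members' median was 0.47, against 0.0048 for all genes. In As2S2 against PMA, 4 members were higher, 4 were lower and 1 did not pass, against 61.4% of all genes called, 30.9% higher and 30.6% lower. The shares of all genes called are large, and the members were chosen with earlier results known. The numbers of members called are therefore read only as a description. In As2S2 against PMA the median of the members was 0.12, and that of all genes was -0.0021. Both treatments were set against the same 3 controls, so their values are given side by side and not as separate evidence.

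**Figure D1:**
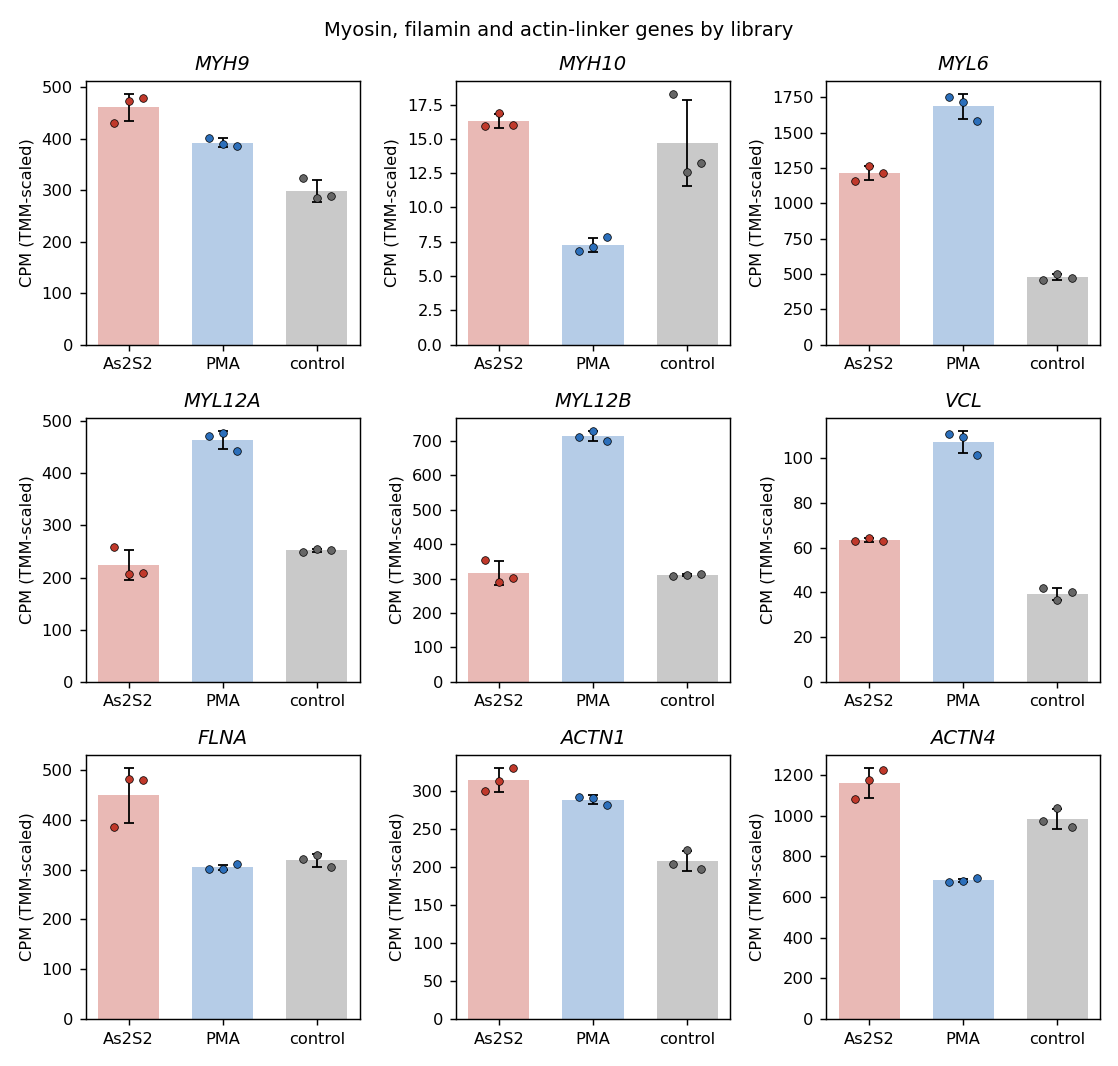
TMM-scaled CPM of the 9 tested genes in every library (points), with the mean (bar) and SD (error bar) of the 3 libraries of each group: As2S2, PMA and control from left to right. MYL6 lay at 1161 to 1265 CPM with As2S2 and 1584 to 1755 with PMA, against 459 to 499.6 in control, and MYH10 lay at 6.85 to 7.86 CPM with PMA, under all other libraries.

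The heavy chain MYH9 (ENSG00000100345) rose with both treatments. It had 431, 473 and 479 CPM with As2S2, 402, 389.7 and 385.5 CPM with PMA, and 324, 284 and 288 CPM in control. The groups did not overlap, and control replicate 1 was the highest control. The log2 fold change was 0.63 ± 0.07 with As2S2 (SE, adjusted p = 4.14e-06, edgeR) and 0.39 ± 0.07 with PMA (adjusted p = 0.000134). As2S2 exceeded PMA by 0.23 ± 0.07 (adjusted p = 0.00867).

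MYH10 (ENSG00000133026), the heavy chain that maturing megakaryocytes silence, fell with PMA and did not pass the test with As2S2. Its deposited counts were 306, 336 and 306 with As2S2, 111, 123 and 146 with PMA, and 396, 244 and 297 in control. In CPM these came to 16.0, 16.9 and 16.0 with As2S2, 6.85, 7.11 and 7.86 with PMA, and 18.3, 12.6 and 13.2 in control. The PMA libraries lay under all others, and the As2S2 libraries lay inside the range of the controls. MYH10 fell with PMA by 1.02 ± 0.14 on the log2 scale (adjusted p = 1.23e-05, edgeR). With As2S2 the log2 difference was 0.15 ± 0.13 (adjusted p = 0.408), and As2S2 exceeded PMA by 1.16 ± 0.14 (adjusted p = 3.01e-06). Control replicate 1 decided the As2S2 value: without it the log2 difference was 0.34 (adjusted p = 0.0372).

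MYH9 was set against MYH10 within each library as a log2 ratio of TPM. The ratio was 4.86, 5.38 and 5.44 with As2S2, 6.64, 5.34 and 5.83 with PMA, and 4.35, 4.07 and 4.87 in control. On the linear scale MYH9 ran from 29.07 to 43.34 times MYH10 with As2S2, from 40.46 to 99.65 times with PMA and from 16.83 to 29.15 times in control. The mean log2 ratio was 5.23 ± 0.316 with As2S2, 5.94 ± 0.656 with PMA and 4.43 ± 0.402 in control (SD, n = 3). PMA exceeded control by 1.51 without overlap (two-sided exact permutation p = 0.1, the smallest that 3 against 3 libraries allow). As2S2 exceeded control by 0.80 with overlap (exact permutation p = 0.2), and lay under PMA, with a difference of -0.71 and overlap (exact permutation p = 0.3). No p under 0.05 is possible in this design.

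The same ratio from CPM scattered less. It was 4.75, 4.81 and 4.91 with As2S2, 5.88, 5.78 and 5.62 with PMA, and 4.14, 4.49 and 4.45 in control, and no groups overlapped. The differences were 0.46 for As2S2 against control, 1.40 for PMA against control and -0.94 for As2S2 against PMA (exact permutation p = 0.1 each). The counts behind each TPM of MYH10, relative to the median gene of the library, varied 2.326-fold between libraries, a measure of the transcript length used in the deposited TPM. For the other tested members it varied between 1.042-fold and 1.323-fold. Its TPM also scattered more between replicates, relative to its mean, than its CPM in each group. Leaving out PMA replicate 1 brought the As2S2 against PMA difference in TPM to -0.36. Coding sequences of this pair are 73.6% identical, and MYH9 and MYH10 each held whole counts in 7 of 9 libraries.

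**Figure D2:**
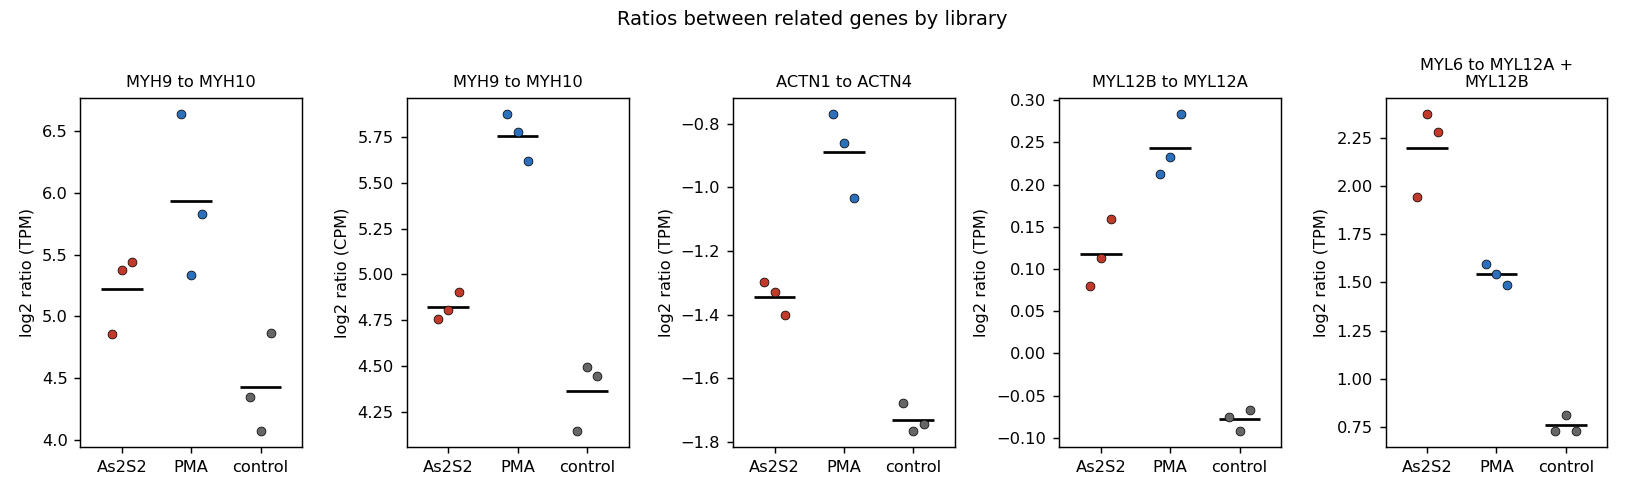
Log2 ratios between related members in every library (points) with the mean of the 3 libraries of each group (line), for As2S2, PMA and control from left to right. The first panels give MYH9 to MYH10 from TPM and from CPM, where the PMA mean was 5.94 and 5.76 and the control mean 4.43 and 4.36, and the others give ACTN1 to ACTN4, MYL12B to MYL12A, and MYL6 to the sum of MYL12A and MYL12B from TPM.

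The essential light chain MYL6 (ENSG00000092841) had the largest fold change of the members against control with both treatments. It had 1161, 1265 and 1216 CPM with As2S2, 1755, 1719.6 and 1584 CPM with PMA, and 459, 499.6 and 469.6 CPM in control. No groups overlapped. The log2 fold change was 1.35 ± 0.07 with As2S2 (adjusted p = 5.61e-10, edgeR) and 1.82 ± 0.07 with PMA (adjusted p = 1.61e-12). Between the treatments it was -0.47 ± 0.07 (adjusted p = 1.21e-05), which shrank to -0.06 (adjusted p = 0.345) once a per-library trend of counts with transcript length was removed. MYL6 held whole counts in 2 of 9 libraries, so part of its reads may be shared with other genes.

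The regulatory light chains parted the treatments. MYL12B (ENSG00000118680) had 355, 291 and 303 CPM with As2S2, 713, 729.9 and 701 CPM with PMA, and 307, 311 and 313 CPM in control. MYL12A (ENSG00000101608) had 258, 206 and 208 CPM with As2S2, 472, 477 and 443 CPM with PMA, and 249, 254 and 254 CPM in control. Every PMA library lay above all others for both genes, and As2S2 replicate 1 was the highest of its group for both.

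With PMA, MYL12B rose by 1.20 ± 0.07 (adjusted p = 7.3e-10, edgeR) and MYL12A by 0.88 ± 0.08 (adjusted p = 1.02e-07) on the log2 scale. With As2S2 the differences were 0.03 ± 0.07 for MYL12B (adjusted p = 0.805) and -0.17 ± 0.08 for MYL12A (adjusted p = 0.108). Without As2S2 replicate 1, MYL12A was called lower at -0.28 (adjusted p = 0.00134) and MYL12B stood at -0.06 (adjusted p = 0.405). Without that library and control replicate 2, MYL12A stood at -0.28 (adjusted p = 2.16e-05), which the design cannot separate from the gap between these libraries on that component. As2S2 lay under PMA for both, with log2 fold changes of -1.18 ± 0.07 for MYL12B (adjusted p = 1.12e-09) and -1.05 ± 0.08 for MYL12A (adjusted p = 1.43e-08). Their coding sequences are 95.7% identical, and how reads that fit both were shared is not given in the sources used here. They held whole counts in 8 and 7 of 9 libraries, MYL12B first.

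The light chain ratios were chosen after the values were seen and carry no test. MYL6 stood at 3.84, 5.18 and 4.86 times the summed TPM of MYL12A and MYL12B with As2S2, at 3.02, 2.92 and 2.80 times with PMA, and at 1.66, 1.76 and 1.66 times in control. The groups did not overlap, and As2S2 was highest. The linear ratio of MYL12B to MYL12A in TPM was 1.057 to 1.117 with As2S2, 1.159 to 1.218 with PMA and 0.938 to 0.955 in control.

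Vinculin, VCL (ENSG00000035403), rose with both treatments and more with PMA. It had 63.0, 64.2 and 63.0 CPM with As2S2, 111, 109.5 and 102 CPM with PMA, and 41.8, 36.5 and 40.0 CPM in control. The groups lay apart. The log2 fold change was 0.69 ± 0.08 with As2S2 (adjusted p = 4.24e-06, edgeR) and 1.44 ± 0.08 with PMA (adjusted p = 1.28e-10), and As2S2 against PMA gave -0.76 ± 0.08 (adjusted p = 2.67e-07). VCL held whole counts in 0 of 9 libraries, so its counts are estimates throughout.

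Filamin A, FLNA (ENSG00000196924), rose with As2S2. It had 386, 483 and 479.6 CPM with As2S2, 301, 302 and 311 CPM with PMA, and 322, 330.1 and 305 CPM in control. All As2S2 libraries lay above the others, replicate 1 least so, while PMA and control overlapped. The log2 fold change was 0.50 ± 0.08 with As2S2 (adjusted p = 0.000144, edgeR) and -0.07 ± 0.08 with PMA (adjusted p = 0.499). As2S2 exceeded PMA by 0.56 ± 0.08 (adjusted p = 1.56e-05). FLNA held whole counts in 9 of 9 libraries.

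The actinins diverged with PMA. ACTN1 (ENSG00000072110) had 299, 313 and 330.0 CPM with As2S2, 292, 291 and 281 CPM with PMA, and 203, 222 and 197 CPM in control. ACTN4 (ENSG00000130402) had 1079.8, 1175 and 1227 CPM with As2S2, 675, 677 and 692 CPM with PMA, and 974, 1038 and 942 CPM in control. For both genes the treated libraries lay clear of the controls, ACTN1 above them with either treatment and ACTN4 above with As2S2 and under with PMA.

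ACTN1 rose by 0.60 ± 0.07 with As2S2 (adjusted p = 4.94e-06, edgeR) and by 0.47 ± 0.07 with PMA (adjusted p = 1.57e-05) on the log2 scale. ACTN4 rose by 0.24 ± 0.07 with As2S2 (adjusted p = 0.00982) and changed by -0.53 ± 0.07 with PMA (adjusted p = 3.53e-06). The As2S2 call on ACTN4 was lost without As2S2 replicate 3 (0.20, adjusted p = 0.0598). As2S2 against PMA gave 0.12 ± 0.07 for ACTN1 (adjusted p = 0.123) and 0.77 ± 0.07 for ACTN4 (adjusted p = 5.86e-08), and the ACTN1 difference passed without As2S2 replicate 1 (0.17, adjusted p = 0.0308) and without both outlying libraries (0.17, adjusted p = 0.000804).

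The linear ratio of ACTN1 to ACTN4 in TPM, chosen after the values were seen, was 0.407, 0.398 and 0.378 with As2S2, 0.587, 0.551 and 0.489 with PMA, and 0.312, 0.294 and 0.299 in control. All 3 groups lay apart. The coding sequences of the pair are 82.1% identical, and whole counts were found in 6 of 9 libraries for ACTN1 and 7 for ACTN4.

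**Figure D3:**
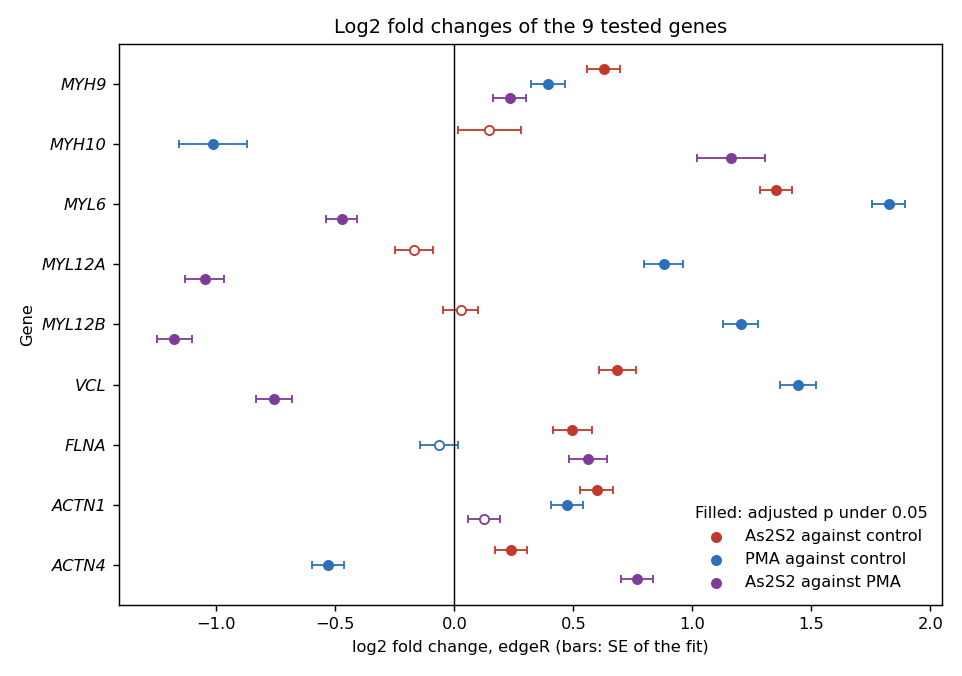
Log2 fold changes from edgeR (points) with the SE of the fit (bars) for the 9 tested genes in As2S2 against control, PMA against control and As2S2 against PMA. Filled points have an adjusted p under 0.05; MYH10 and ACTN4 lie under 0 with PMA, at -1.02 and -0.53, and MYL6 lies highest with both treatments against control, at 1.35 and 1.82.

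Calls on PMA depended on the scale for some members. On unscaled log2(TPM + 1) the median of all genes moved by -0.07 with As2S2, -0.26 with PMA and 0.18 for As2S2 against PMA. The genes called there were 1685 higher and 3066 lower with As2S2, 1971 higher and 6984 lower with PMA, and 5968 higher and 2320 lower for As2S2 against PMA. The same counts from edgeR were 2962 and 2859, 4494 and 4540, and 4503 and 4463. On the TPM scale ACTN1 with PMA stood at -0.01 (limma, adjusted p = 0.901), or 0.25 above the median gene, and MYH9 at 0.13 (adjusted p = 0.113), or 0.39 above it. FLNA with PMA was called lower there at -0.22 (adjusted p = 0.0402), which was 0.04 above the median gene. ACTN4 with As2S2 stood at 0.09 (adjusted p = 0.416), or 0.16 above the median, and MYL12A with As2S2 was called lower at -0.30 (adjusted p = 0.021), or -0.23 from it.

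MYH10 with As2S2 was -0.21 in TPM (adjusted p = 0.413). With PMA, VCL stood at 0.85 (adjusted p = 2.37e-05), MYL12B at 0.73 (adjusted p = 2.03e-05), MYL12A at 0.41 (adjusted p = 0.00178) and ACTN4 at -0.84 (adjusted p = 7.79e-06). Relative to the median gene these were 1.11 for VCL, 0.99 for MYL12B, 0.67 for MYL12A and -0.58 for ACTN4. In As2S2 against PMA, MYL6 stood at -0.12 (adjusted p = 0.0594) and ACTN1 was called higher at 0.48 (adjusted p = 3.07e-05), while MYH9 stood at 0.35 (adjusted p = 0.000822), MYH10 at 0.57 (adjusted p = 0.0213) and VCL at -0.37 (adjusted p = 0.00689). Removing a per-library trend with transcript length brought As2S2 against PMA to -0.06 for MYH9 (adjusted p = 0.449) and -0.03 for ACTN1 (adjusted p = 0.734), FLNA with PMA to 0.09 (adjusted p = 0.401), and ACTN4 with PMA to -0.26 (adjusted p = 0.00896). The same step gave 0.71 for MYH9 with PMA (adjusted p = 1.67e-07) and -0.66 for MYH10 (adjusted p = 0.000248), 0.59 for MYL12A with PMA (adjusted p = 1.45e-05) and 0.51 for ACTN4 in As2S2 against PMA (adjusted p = 3.3e-05).

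The authors' deposited table gave log2 fold changes near these. For As2S2 against control it gave 0.62 for MYH9, 0.14 for MYH10, 1.34 for MYL6 and 0.49 for FLNA. For PMA against control the authors' deposited table listed 0.36 for MYH9, -1.05 for MYH10, 1.80 for MYL6 and -0.09 for FLNA.

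Of the genes around the members, the other myosins held 6 tested genes of 8 listed. With As2S2, 3 rose and 1 fell, and 66.7% of the tested genes were called with either treatment, against 39.9% of all genes with As2S2 and 61.9% with PMA. MYO9B, an unconventional myosin, rose by 0.64 ± 0.08 (adjusted p = 9.16e-06, edgeR), MYO1E by 0.98 ± 0.14 (adjusted p = 6.01e-05) and MYO18A by 0.56 ± 0.11 (adjusted p = 0.000833). The light chain MYL5 gave -0.59 ± 0.21 (adjusted p = 0.0383), a call lost in 11 of the alternatives. In TPM, MYO1E (0.69, adjusted p = 0.112) and MYO18A (0.20, adjusted p = 0.222) did not pass. With PMA, 2 rose and 2 fell. MYO1G, a membrane-bound myosin of blood cells, came to 34.5 ± 0.545 CPM with PMA and 110.9 ± 7.43 CPM in control, a log2 fold change of -1.69 ± 0.09 (adjusted p = 1.52e-10). MYO9B gave -0.36 ± 0.08 (adjusted p = 0.000856), MYO1E 0.55 ± 0.15 (adjusted p = 0.00408) and MYL6B 0.24 ± 0.09 (adjusted p = 0.0325), the last with the other sign in TPM (-0.25, adjusted p = 0.011). The MYL6B call was also lost without a filter on low counts (0.19, adjusted p = 0.121), and without control replicate 1 (adjusted p = 0.141) or 3 (0.101) or PMA replicate 1 (0.0819), 2 (0.055) or 3 (0.0838). In TPM, MYO1E with PMA stood at 0.10 (adjusted p = 0.791) and MYO9B at -0.63 (adjusted p = 6.86e-05). The list's median was 0.35 with As2S2 and 0.09 with PMA, against -0.0001 and 0.0048 for all genes. MYH14, the remaining nonmuscle heavy chain, was not tested, with summed counts of 1, 26 and 2 for As2S2, PMA and control, and MYH11, the smooth muscle chain, was not tested either.

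The enzymes that set light chain phosphorylation held 18 tested genes. With As2S2, 4 rose, 1 fell and 13 did not pass, a called share of 27.8% against 39.9% of all genes, with 22.2% called higher against 20.3%. MYLK, the myosin light chain kinase, reached 4.30 ± 0.154 CPM with As2S2 and 1.48 ± 0.0161 CPM in control (1.53 ± 0.15, adjusted p = 1.34e-06, edgeR). RHOC, a small GTPase, rose by 0.79 ± 0.10 (adjusted p = 1.48e-05), the kinase CIT by 0.47 ± 0.12 (adjusted p = 0.00686) and LIMK2, which phosphorylates cofilin, by 0.39 ± 0.11 (adjusted p = 0.0103). The gene that fell was RND3, named after its values were seen, with 3 counts with As2S2 and 14 in control, summed over the libraries. No gene of the list was called lower with DESeq2, on log2(TPM + 1), or without any 1 of the As2S2 libraries. The list's median was 0.14. The count of risen genes moved to 8 without control replicate 2, to 7 without As2S2 replicate 1, to 10 without both and to 2 in TPM, where CIT (0.20, adjusted p = 0.288) and LIMK2 (0.27, adjusted p = 0.0835) did not pass. LIMK2 was also lost without As2S2 replicate 2 (0.31, adjusted p = 0.0629).

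With PMA, 8 of the 18 rose, 9 fell and 1 did not pass, so 94.4% were called, against 61.9% of all genes. MYLK reached 25.5 ± 1.34 CPM with PMA, against the 1.48 in control, a log2 fold change of 4.10 ± 0.13 (adjusted p = 3.4e-13, edgeR). RHOB rose by 2.66 ± 0.15 (adjusted p = 1.71e-10) and RHOC by 1.59 ± 0.10 (adjusted p = 1.15e-09), whereas ARHGEF2, a guanine nucleotide exchange factor, gave -0.98 ± 0.07 (adjusted p = 5.79e-09). The ROCK kinases, named after their values were seen, both fell, with -1.22 for ROCK1 (adjusted p = 6.3e-06) and -0.84 for ROCK2 (adjusted p = 0.0011). The list's median was -0.11, and in TPM 3 of the 18 were called higher. On log2(TPM + 1), which understates low genes, MYLK stood at 0.71 with As2S2 and 2.23 with PMA, and RHOB with PMA at 1.69.

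Among 25 tested linkers of actin to integrins, 12 rose, 2 fell and 11 did not pass with As2S2, and 11 rose, 6 fell and 8 did not pass with PMA. The called share was 56.0% with As2S2, against 39.9% of all genes, and 68.0% with PMA, near the 61.9% of all genes. LASP1, an actin-binding adhesion protein, rose with both, by 1.04 ± 0.07 with As2S2 (adjusted p = 3.01e-08, edgeR) and 0.94 ± 0.07 with PMA (adjusted p = 1.4e-08). ZYX rose by 0.81 ± 0.11 (adjusted p = 4.13e-05) and the integrin activator FERMT3 by 0.63 ± 0.09 (adjusted p = 4.31e-05) with As2S2. PXN, the adhesion scaffold paxillin, rose by 1.20 ± 0.09 with PMA (adjusted p = 1.07e-08), and LIMS1 reached 189.9 ± 1.46 CPM with PMA and 94.8 ± 12.8 CPM in control (adjusted p = 2.98e-07). The list's median was 0.35 with As2S2 and 0.11 with PMA, and in TPM 6 of the 25 were called higher with PMA. There LASP1 with PMA was 0.45 (adjusted p = 0.000179), PXN 0.79 (adjusted p = 5.78e-05) and LIMS1 0.59 (adjusted p = 0.00326).

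Of 24 actin filament genes, 14 rose, 0 fell and 10 did not pass with As2S2, and 15 rose, 2 fell and 7 did not pass with PMA. The called share was 58.3% with As2S2, against 39.9% of all genes, and 70.8% with PMA, against 61.9%. GSN, the severing protein gelsolin, rose by 1.09 ± 0.09 with As2S2 (adjusted p = 1.24e-07, edgeR) and 2.11 ± 0.09 with PMA (adjusted p = 5.53e-12). TMSB4X, which sequesters actin monomers, reached 1083 ± 22.6 CPM with As2S2 and 3944 ± 73.0 CPM with PMA, against 683 ± 52.4 CPM in control. The coronins split with PMA: CORO1C rose by 1.88 ± 0.08 (adjusted p = 8.84e-12) and CORO1A gave -1.55 ± 0.12 (adjusted p = 9.05e-09), while CORO1A rose by 1.05 ± 0.11 with As2S2 (adjusted p = 2.15e-06). The list's median was 0.33 with As2S2 and 0.44 with PMA. The split of calls with PMA moved to 4 higher and 11 lower in TPM.

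Of 10 regulators around SRF, MRTF and RUNX1, 3 rose, 3 fell and 4 did not pass with As2S2, and 2 rose, 4 fell and 4 did not pass with PMA. The called share was 60.0% with either treatment, against 39.9% of all genes with As2S2 and 61.9% with PMA. RUNX1, the named repressor of MYH10, came to 119 ± 8.19 CPM with As2S2 and 92.9 ± 2.21 CPM with PMA, against 167 ± 1.17 CPM in control. Its log2 fold change was -0.49 ± 0.07 with As2S2 (adjusted p = 3.91e-05, edgeR) and -0.84 ± 0.07 with PMA (adjusted p = 2.75e-08). MRTFA, the actin-sensing partner of SRF, rose by 0.39 ± 0.10 with As2S2 (adjusted p = 0.00457). It did not pass with PMA (-0.12 ± 0.10, adjusted p = 0.321, edgeR). SRF itself, named after its values were seen, did not pass with As2S2 (-0.03 ± 0.10, adjusted p = 0.83, edgeR). With PMA SRF fell (-0.46 ± 0.10, adjusted p = 0.000951). The acetyltransferase EP300 gave -0.98 ± 0.10 with PMA (adjusted p = 2.83e-07), or -0.58 with the length trend removed. The list's median was 0.02 with As2S2 and -0.29 with PMA. The glycoprotein Ib complex, which FLNA anchors, held 3 tested genes of 4. With As2S2, 1 rose and 2 did not pass, a called share of 33.3% against 39.9% of all genes. With PMA, 2 rose and 1 did not pass, or 66.7% called against 61.9%. GP1BB had 282.9 summed counts with PMA, against 8.6 in control (5.19 ± 0.45, adjusted p = 4.41e-08), and GP9 rose by 2.80 ± 0.30 (adjusted p = 6.7e-07). On log2(TPM + 1) GP1BB stood at 2.24 and GP9 at 1.34. With As2S2 GP1BA rose by 0.53 ± 0.13 (adjusted p = 0.00356), and in TPM it did not pass (0.32, adjusted p = 0.0712). GP1BA did not pass with PMA (0.30 ± 0.13, adjusted p = 0.0511, edgeR). Neither GP1BB (-0.98 ± 0.94, adjusted p = 0.437, edgeR) nor GP9 (0.39 ± 0.37, adjusted p = 0.429) passed with As2S2.

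**Figure D4:**
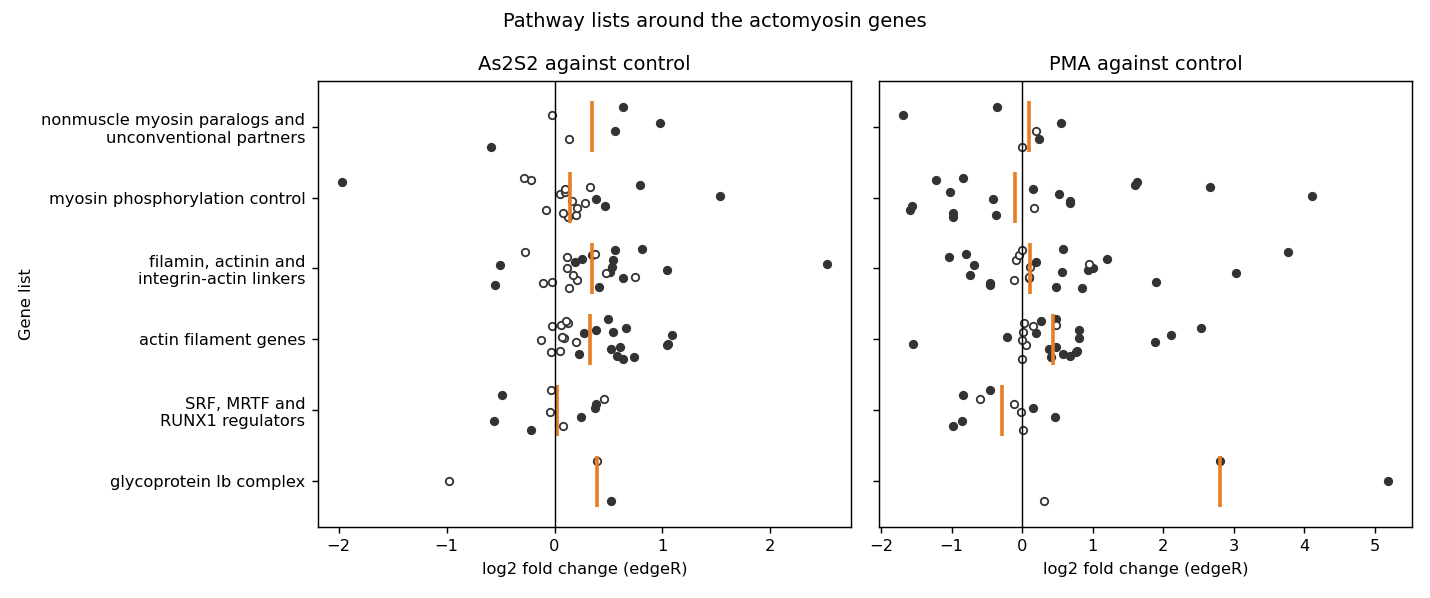
Log2 fold changes (edgeR) of the tested genes of each list, in As2S2 against control and PMA against control, with the median of each list as a vertical bar. Filled points have an adjusted p under 0.05; the actin filament medians were 0.33 with As2S2 and 0.44 with PMA, and those of the myosin phosphorylation genes 0.14 and -0.11.

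The genes most like MYH9 and MYH10 over the 9 libraries were ranked by the root-mean-square distance of log2(CPM + 0.5) centred on the control mean, among 9711 genes averaging 5 CPM or more. Nearest to MYH9 were GGCX (distance 0.0725), NXF1 (0.0761) and ACP2 (0.0777). Nearest to MYH10 were THOC1 (0.093), CEMIP2 (0.099) and EP300 (0.0992). The distances are descriptions, with no test.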

How the data were processed

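RNA of 9 MEG-01 libraries (3 As2S2, 3 PMA, 3 control) was made with a poly(A)-selecting kit, per the labels. The submitters ran fastp 0.22.0 and DESeq2, per the submitters' processing notes. Those notes name zebrafish genome builds, and 1 control carries an organism label other than human, while the tables hold human Ensembl IDs. Not given in the sources used here are the aligner, counter, genome build of the tables, annotation and strand setting. Printed coordinates are those of the RefSeq start-site sequences, not of the tables.

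The authors deposited estimated counts (expected counts, not normalized) and TPM per gene and library, per the file headers, in 1 table per treatment. Adjusted p-values and log2 fold changes of the authors' own comparisons are also deposited. Control columns differed in 0 values between the tables. Of each library's count values, 89.9% to 91.4% were whole (70.8% to 73.4% of detected genes), and counts were rounded before testing. Symbols were found for 62666 IDs.

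All 9 libraries entered 1 quasi-likelihood fit (edgeR 4.0.16, R 4.3.3; filterByExpr, TMM, group as factor), with Benjamini-Hochberg adjustment over all 14592 genes and calls at 0.05. Square root of the common dispersion: 0.0909. On counts simulated for As2S2 against control (13988 genes fitted), the fit called 64.9% of genes changed 1.5-fold and 87.9% of those changed 2-fold, with 3 false calls. An intended minimum of 70% for 1.5-fold genes was not met and was dropped after this was seen. The MYH9 to MYH10 ratio was tested by exact permutation. Alternatives were DESeq2 1.42.0, RLE or upper-quartile factors, limma 3.58.1 (voom, and log2 TPM with a pseudocount of 1 or 0.1), no filter, a stricter filter (10 counts or more throughout a group, mean of 1 CPM), pairwise fits, a replicate block, a transcript length trend removed, and libraries left out. Coding identity came from GENCODE 29 and promoters from RefSeq. Named from each list were up to 4 genes with the smallest adjusted p per treatment; some listed genes are not reported here. The members and lists were chosen with earlier results of these data known, so no p is adjusted over a list alone. The floor covers counting error only.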

Additional observations from a re-analysis of the deposited data

How the results depend on the processing

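The counts of genes and of members past the threshold stayed within 1.5 times under every alternative run. The MYH9 to MYH10 log2 differences kept their sign but ranged from 0.46 to 1.02 for As2S2 against control, 1.16 to 1.81 for PMA against control and -1.01 to -0.36 for As2S2 against PMA. No setting could bring their p under 0.05, so the test says nothing of their stability. Genes called ran from 4657 to 7489 for As2S2 against control, 8282 to 10076 for PMA against control and 8159 to 9894 for As2S2 against PMA, and members called from 5 to 7, 7 to 8 and 6 to 9. The replicate block gave 5972, 9180 and 9044 genes and 6, 8 and 8 members. The labels do not say whether replicate numbers pair the samples. Deviations of same-numbered libraries correlated at 0.149, 0.084 and -0.073 between As2S2 and control, 0.039, 0.015 and -0.008 between PMA and control, and 0.002, -0.032 and -0.069 between As2S2 and PMA. Differently numbered libraries ran from -0.215 to 0.149, from -0.049 to 0.034 and from -0.027 to 0.058 in the same order. With 3 libraries in each group, these values cannot decide whether samples were paired.

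Directions reversed in a few cases, in TPM with a pseudocount of 1 and 0.1: MYH10 with As2S2 (-0.21 and -0.30), MYL12B with As2S2 (-0.10 in both), ACTN1 with PMA (-0.0086 and -0.0087), MYL6B with PMA (-0.25 in both) and FLI1 with PMA (-0.0213 and -0.0228). With the length trend removed, FLNA with PMA gave 0.0868, MYL6B with PMA -0.10, and As2S2 against PMA gave -0.0619 for MYH9 and -0.0309 for ACTN1. MYL12B with As2S2 was also -0.0013 under upper-quartile scaling, -0.0619 with both outlying libraries left out, and between -0.0597 and 0.0901 with single libraries left out. The cause was not tested. Counts of list genes that moved by over 1.5 times were, with As2S2, risen myosins (3, but 1 in TPM and 5 without both outlying libraries), risen myosin phosphorylation genes (4, but 2 in TPM and 10 without both), risen regulators (3, but 5 without both), risen glycoprotein Ib genes (1, but 0 in TPM) and counts of fallen genes at 0 or 1, which moved to 3 at most. With PMA they were risen myosins (2, but 0 in TPM), myosin phosphorylation genes (8, but 3), linkers (11, but 6), actin genes (15, but 4) and regulators (2, but 0), and fallen actin genes (2, but 11) and regulators (4, but 8), all in TPM. Leaving out a single library brought risen myosins with PMA, risen regulators with PMA and fallen actin genes with PMA to 1. Depth limits MYL9, which had at most 1 count in a group.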
